A study of Homo sapiens with 18 samples.

Results

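Differentiated SH-SY5Y cells were compared between the 6 code-1109 and the 7 code-0409 libraries of the series. They are 13 of its 18 libraries. Each code is a number that ends the library's label. The members were picked by the code in the column name alone, and the column headed Control049 was taken as code-0409 because its sample's label reads Control_0409. The labels do not say what the code stands for, so it is used here only as a name for each set of libraries. SH-SY5Y is a long-established line derived from a human neuroblastoma, with sympathoadrenal features. All cells were wild type, were seeded for 24 h, kept 7 days in 10 µM all-trans retinoic acid in low-serum medium, and exposed for 15 min to a ligand or to water before lysis. Code-1109 held 1 library each of water control, morphine (193 nM), metamorphine (169 nM), TRV130 (200 nM), β-endorphin (200 nM) and naloxone (200 nM). Code-0409 held the same 6 treatments at the same doses, with 2 libraries of TRV130. The other 5 libraries form the code-14.04 set, have no TRV130, and are given only as a level beside the compared sets. No label states whether libraries came from separate cultures, so every p-value below reflects only how much these libraries vary, and that variation may be technical. Each treatment stood in both sets and was a term of the model, so a difference between codes is a difference between libraries given the same treatment.

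Retinoic acid drives neuroblastoma cells toward a neuron-like state, in which MYC-family activity and the cell cycle decline while neurites and ion channels are built. Cultures are not uniform in this, and cycling and non-cycling cells can stand side by side. E2F proteins, which the retinoblastoma protein holds back, switch S phase genes on. The MuvB complex with MYBL2 and FOXM1 drives mitotic genes through the CHR element, and SREBP2 drives sterol synthesis. In bulk RNA, fewer cells of a type and less RNA per cell cannot be told apart.

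Levels are given as CPM, counts scaled to a common library total. The 13 libraries held 22391264 to 33123855 counts over genes. The median total was 24038000 in code-1109 and 29351000 in code-0409, a difference that did not pass an exact permutation test within treatments (two-sided p = 0.0729, adjusted over 6 library measures 0.438, where 96 arrangements allow no p under 0.0208). All 12 neuroblastoma identity genes were measured in both sets, and of these 6 were lower and 1 was higher in code-1109 (median log2 fold change -0.32; 4 lower and 1 higher without the water control of code-0409). Over all tested genes 11.6% were lower and 9.03% higher by the same edgeR test, described next. Their summed level was 5673 to 6918 CPM in code-1109 and 6630 to 8365 CPM in code-0409. PHOX2A, a sympathoadrenal transcription factor, averaged 1505 ± 116 CPM in code-1109 (SD, n = 6) and 1540 ± 216 CPM in code-0409 (SD, n = 7). DBH, which converts dopamine to noradrenaline, averaged 1896 ± 96.7 CPM in code-1109 and 1971 ± 146 CPM in code-0409. Epithelial markers summed to 16.01 to 28.4 CPM in code-1109 and 15.4 to 39.8 CPM in code-0409, and immune markers to 12.1 to 17.1 CPM in code-1109 and 11.2 to 32.9 CPM in code-0409. The upper end of code-0409 came from its water control, which also had 820 CPM in all in protein-coding genes whose median count over the 18 libraries was 0, against 16.9 to 105 in the other 6 code-0409 libraries and 21.4 to 59.0 in code-1109. Counts of calls, over all genes and for the gene lists, are therefore also given without that library. With treatment as a term of the model, the code-1109 water control then adds nothing to the difference between codes.

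Across all genes, 4485 of 21755 tested genes differed between the codes, 20.6% (edgeR quasi-likelihood test, Benjamini-Hochberg adjusted p below 0.05). In code-1109, 1965 genes were higher (9.03%) and 2520 were lower (11.6%). Changes were mostly small: the median size among the called genes was 0.52 on the log2 scale, and 427 called genes changed at least 2-fold, 319 upward and 108 downward. The direction was the same in all 6 treatments for 3182 of the called genes. The calls rest on these same libraries, so agreement was favoured beforehand, and its share over all tested genes is not given. The CPM ranges of the codes did not overlap at all for 684 genes that were higher in code-1109 (3.14%) and 1078 that were lower (4.96%). Without the code-0409 water control, 2571 of 21570 genes were called (11.9%), 1192 higher (5.53%) and 1379 lower (6.39%) in code-1109. Of the 4474 genes called with 13 libraries and tested in both fits, 2471 were called again. All 4474 had the same direction, in fits that share every library but that control.

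The number of calls depended on which treatment was left out. Treatment was a term of the model. Where a code held 1 library of a treatment, leaving it out therefore removed that whole treatment from the comparison of codes. Leaving out the β-endorphin library of code-1109 or of code-0409 left 574 or 589 calls, the naloxone library of code-1109 or of code-0409 left 685 or 713, and the TRV130 library of code-1109 left 734. Without the first or the second TRV130 library of code-0409 there were 2799 or 1415 calls, without the code-1109 water control 2598, and without the morphine library of code-1109 or of code-0409 there were 6806 or 6801. No gene called with 13 libraries changed sign in any of these fits. They share most of their libraries with the fit that chose the genes, so a change of sign was unlikely beforehand. A set of 486 genes was called in every one of them, 188 higher (0.864%) and 298 lower (1.37%) in code-1109, and these are marked below as kept with each library left out. Against a minimum change of 1.5-fold, edgeR's glmTreat called 0 genes, with 968 at an unadjusted p below 0.05 and a smallest adjusted p of 0.134, and no other tool was run for that question.

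**Figure D1:**
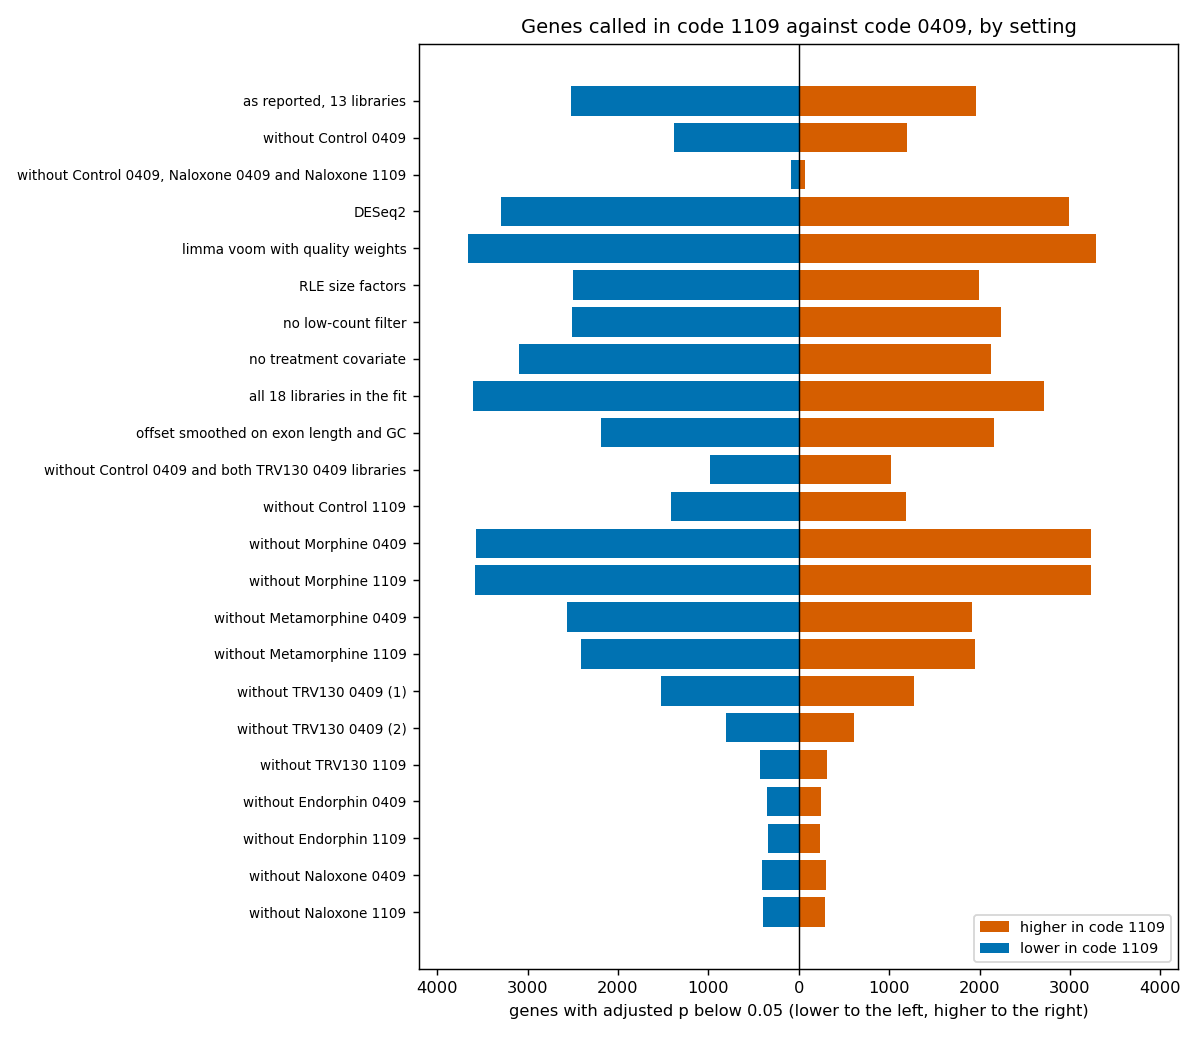
Genes with adjusted p below 0.05 in code-1109 against code-0409 under each setting; bars to the right count genes higher in code-1109 and bars to the left genes lower in code-1109. The 13-library fit called 1965 and 2520 genes, and the shortest bars belong to the fits without a naloxone, β-endorphin or code-1109 TRV130 library.

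Cell cycle genes were lower in code-1109. Of the 24 tested S phase genes, which build and fire replication origins and supply nucleotides, 22 fell, 0 rose and 2 did not pass, with a median log2 fold change of -0.53 against 0.03 over all tested genes. The list's mean log2 CPM, taken relative to the code-0409 mean, lay between -0.70 and -0.36 in the 6 code-1109 libraries and between -0.07 and 0.16 in the 7 code-0409 libraries. The sets did not overlap, and the 5 code-14.04 libraries lay between them, from -0.21 to -0.10. The list's median difference was negative in all 6 treatments, from -0.73 in water to -0.29 with metamorphine. The calls numbered 21 without the code-0409 water control and 14 without its β-endorphin library, and 14 genes were kept with each library left out.

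TYMS makes thymidylate for DNA synthesis. Its lowest, median and highest values were 51.2, 57.7 and 70.5 CPM in code-1109 and 89.0, 92.9 and 113 CPM in code-0409. No code-1109 library reached the lowest code-0409 library, and the log2 fold change was -0.69 ± 0.08 (SE; edgeR adjusted p = 0.00317). TYMS shares exon sequence with ENOSF1 on the opposite strand, and the counts carry no strand. RRM2, the small subunit of ribonucleotide reductase, had 34.3, 41.9 and 50.4 CPM in code-1109 and 61.6, 65.6 and 88.6 CPM in code-0409 (log2 fold change -0.69 ± 0.08). E2F1, a transcription factor that switches on S phase genes, had 40.8, 46.9 and 59.5 CPM in code-1109 and 72.4, 77.2 and 84.2 CPM in code-0409 (-0.67 ± 0.08, edgeR adjusted p = 0.00341). Both sets were again apart for these genes. MCM6, a subunit of the replicative helicase, fell by 0.59, PCNA, the sliding clamp of DNA polymerases, by 0.92, and GINS2 by 0.94 on the log2 scale, and these were kept with each library left out. The members that did not pass were POLA1 (-0.13) and CLSPN (-0.04).

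Of the 24 genes of G2 and mitosis, 16 fell, 0 rose and 8 did not pass, with a median of -0.51. MYBL2, the MYB-family partner of the MuvB complex (chr20:43667019-43716496 in GRCh38), is on neither list but was among the 5 genes with the smallest p that fell. It had 66.1, 74.4 and 86.9 CPM in code-1109 and 132, 149 and 169 CPM in code-0409, with no overlap and a log2 fold change of -0.92 ± 0.10 (edgeR adjusted p = 0.00239). FOXM1, a forkhead factor for mitotic genes, had 44.0, 53.9 and 54.7 CPM in code-1109 and 70.4, 73.9 and 97.9 CPM in code-0409 (-0.55 ± 0.08). BIRC5, a chromosomal passenger protein, had 22.1, 26.5 and 33.01 CPM in code-1109 and 42.1, 46.5 and 62.3 CPM in code-0409 (-0.86 ± 0.13). All 3 were kept with each library left out, as were BUB1B of the spindle checkpoint, the ubiquitin-conjugating enzyme UBE2C, the cyclins CCNA2 and CCNB2, and the spindle factor TPX2. The proliferation marker MKI67 (0.05), CENPF (-0.16), ASPM (0.08) and TOP2A (-0.15) did not pass. With an offset for exon length and GC content, 22 S phase genes and 16 mitotic genes were called lower, with medians of -0.46 and -0.36. The mitotic calls numbered 15 without the code-0409 water control and 8 without the TRV130 library of code-1109, and 7 genes were kept with each library left out.

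The promoters of these genes are shown because members of both lists moved together. In RefSeq windows of GRCh38.p14 running from 250 bases before to 50 after the gene start, the E2F letters TTTCCCGC, TTTCGCGC, TTTGCCGC and TTTGGCGC were searched on both strands, as were the CHR letters TTTGAA. Windows were found for 20 of the 24 S phase genes, and 14 of them (70.0%) held E2F letters, against 908 of all 27305 promoters (3.33%). Among 19 of the 24 mitotic genes with a window, 13 (68.4%) held CHR letters, against 15.4% of all promoters, and 3 held E2F letters. For S phase genes CHR letters were in 1 of 20. These are matches of letters and not measured binding sites, and these lists hold textbook targets of both elements. The 250 bases before the start of TYMS (chr18:657403-657652, plus strand) and of BUB1B (chr15:40160819-40161068, plus strand) follow, 5′ to 3′, with the E2F letters of TYMS, here on the minus strand, and the CHR letters of BUB1B in capitals.
TYMS: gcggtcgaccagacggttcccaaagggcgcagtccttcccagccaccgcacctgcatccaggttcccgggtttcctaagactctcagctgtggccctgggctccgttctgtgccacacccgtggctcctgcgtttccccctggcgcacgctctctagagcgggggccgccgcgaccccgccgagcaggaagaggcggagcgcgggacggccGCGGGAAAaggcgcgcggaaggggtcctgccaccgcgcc
BUB1B: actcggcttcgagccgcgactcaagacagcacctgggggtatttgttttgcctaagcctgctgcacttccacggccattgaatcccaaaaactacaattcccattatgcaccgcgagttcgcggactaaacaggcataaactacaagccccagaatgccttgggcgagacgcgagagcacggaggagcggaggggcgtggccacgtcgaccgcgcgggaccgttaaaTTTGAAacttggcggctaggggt
The matches begin 39 bases before the start of TYMS and 23 bases before that of BUB1B.

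MYC and much of its network were lower in code-1109. MYC, the growth-promoting transcription factor, had 2.85, 3.33 and 5.36 CPM in code-1109 and 6.64, 8.46 and 9.79 CPM in code-0409. The sets did not overlap, the metamorphine library being the highest of code-1109, and the log2 fold change was -1.23 ± 0.13 (edgeR adjusted p = 0.00239) and -1.26 without the code-0409 water control. The 5 code-14.04 libraries had a median of 3.58 CPM. MYCN, which is not amplified in this line, averaged 3.93 ± 0.76 CPM in code-1109 (SD, n = 6) and 4.96 ± 0.63 CPM in code-0409 (SD, n = 7) and did not pass (-0.31, edgeR adjusted p = 0.111). Of the 25 network genes tested, 15 fell and 1 rose, with a median of -0.39. Those that fell included ODC1 of polyamine synthesis (-0.46), the nucleolar proteins FBL (-0.62) and NCL (-0.33), and the telomerase subunits DKC1 (-0.42) and TERT (-0.69). MNT, a repressor that competes with MYC for MAX, rose by 0.50. The calls were 11 without the code-0409 water control and 4 without the naloxone library of code-0409, and 4 genes (MYC, LDHA, RRS1 and DKC1) were kept with each library left out.

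**Figure D2:**
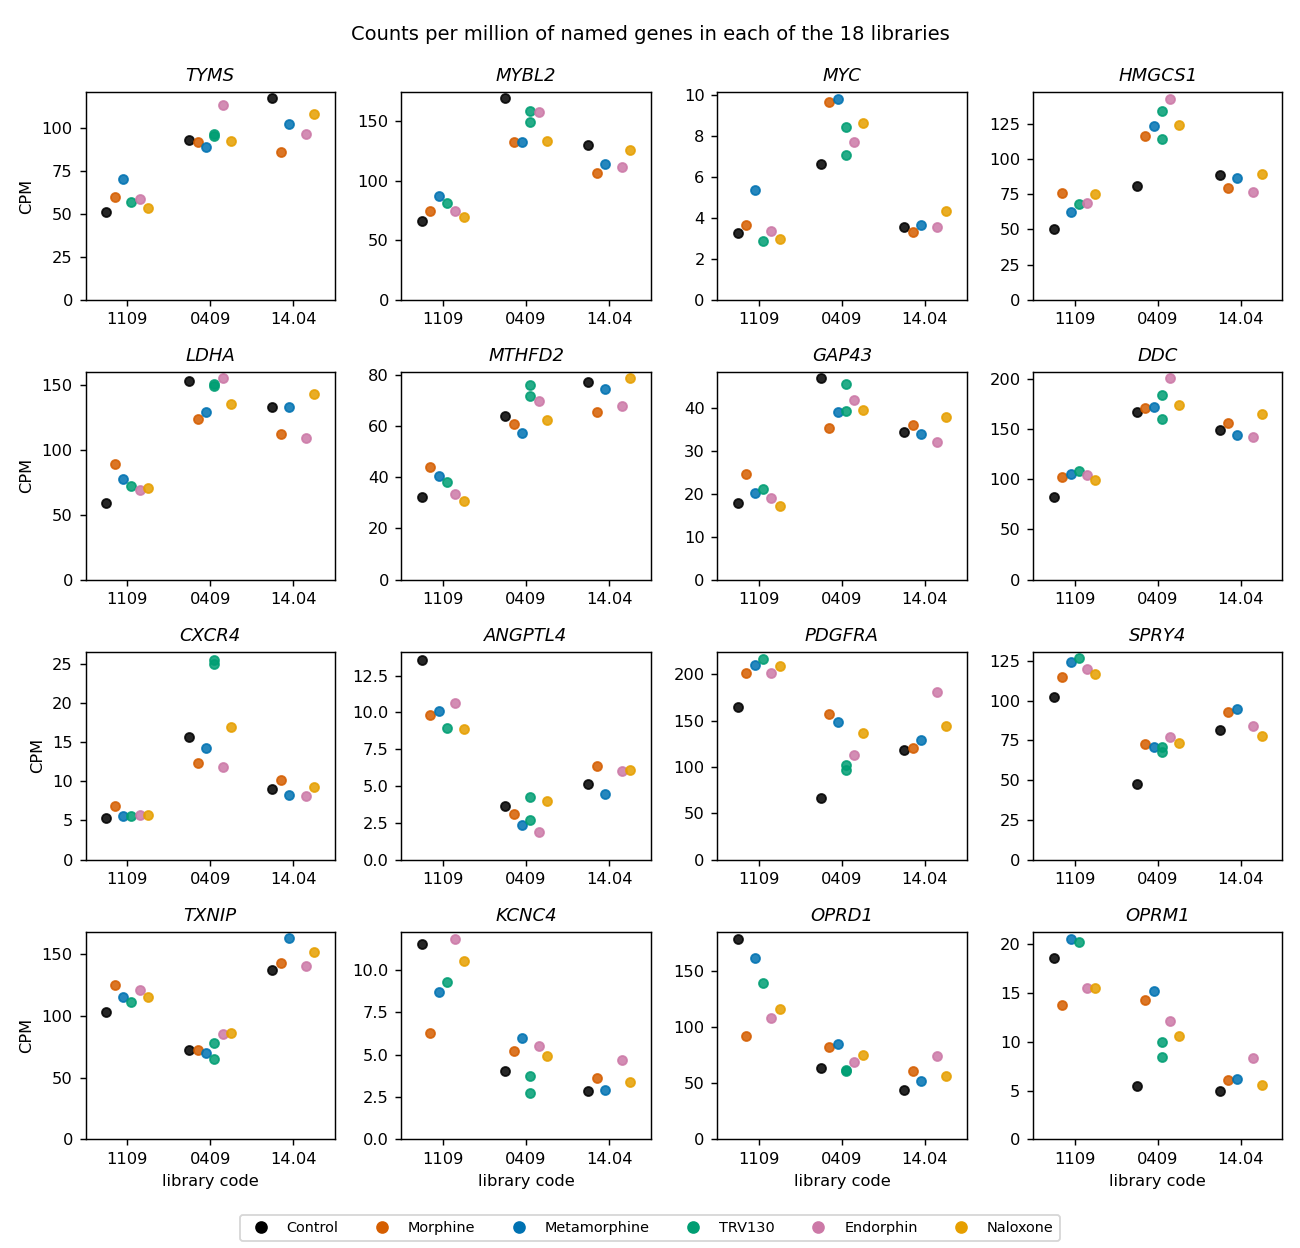
Levels in CPM of 16 named genes (vertical axes, each from 0) in the libraries of code-1109, code-0409 and code-14.04, 1 point per library coloured by treatment. TYMS, MYBL2, MYC, HMGCS1, LDHA, MTHFD2, GAP43, DDC and CXCR4 sat lower in code-1109 than in code-0409 without overlap, and ANGPTL4, PDGFRA, SPRY4, TXNIP, KCNC4 and OPRD1 sat higher without overlap, while OPRM1 overlapped.

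Enzymes of sterol synthesis were lower in code-1109 throughout the pathway. Of 23 tested genes, 18 fell, 0 rose and 5 did not pass, with a median of -0.47. The list's mean log2 CPM relative to code-0409 lay below that of every code-0409 library in all 6 code-1109 libraries, and the median difference was negative in each treatment, from -0.76 in water to -0.34 with morphine. HMGCS1, which makes HMG-CoA, had 50.3, 68.4 and 75.6 CPM in code-1109 and 80.8, 123.3 and 143 CPM in code-0409 (log2 fold change -0.80 ± 0.08, edgeR adjusted p = 0.00239). DHCR7, the last reductase of cholesterol synthesis, had 62.3, 77.6 and 83.6 CPM in code-1109 and 110, 129 and 148 CPM in code-0409 (-0.74 ± 0.09). MVD, the decarboxylase that yields the isoprenoid building block, had 43.7, 48.5 and 52.1 CPM in code-1109 and 71.9, 86.7 and 135 CPM in code-0409 (-0.94 ± 0.12). For all 3 the highest code-1109 library was below the lowest code-0409 library.

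ACAT2, which joins acetyl-CoA units, was among the 15 largest falls outside the list (-1.09 ± 0.15) and shares exon sequence with TCP1 on the opposite strand; its morphine library of code-1109, at 60.0 CPM, stood apart above the other 5. The regulator SREBF2 had a log2 fold change of -0.08 and did not pass. On the same scale the sterol list lay between -0.74 and -0.44 in code-1109, between -0.11 and 0.16 in code-0409, and between -0.58 and -0.44 in code-14.04. There were 17 calls in the list without the code-0409 water control, 18 with the length and GC offset, and 13 without its naloxone library, with 13 genes kept with each library left out. Of 13 fatty acid synthesis genes, 3 fell, and 3 were called without the code-0409 water control: the elongase ELOVL6 (-0.40), the desaturase SCD (-0.42) and FADS2 (-0.31). That list's median was -0.06, and -0.34 without the water control and both TRV130 libraries of code-0409.

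**Figure D3:**
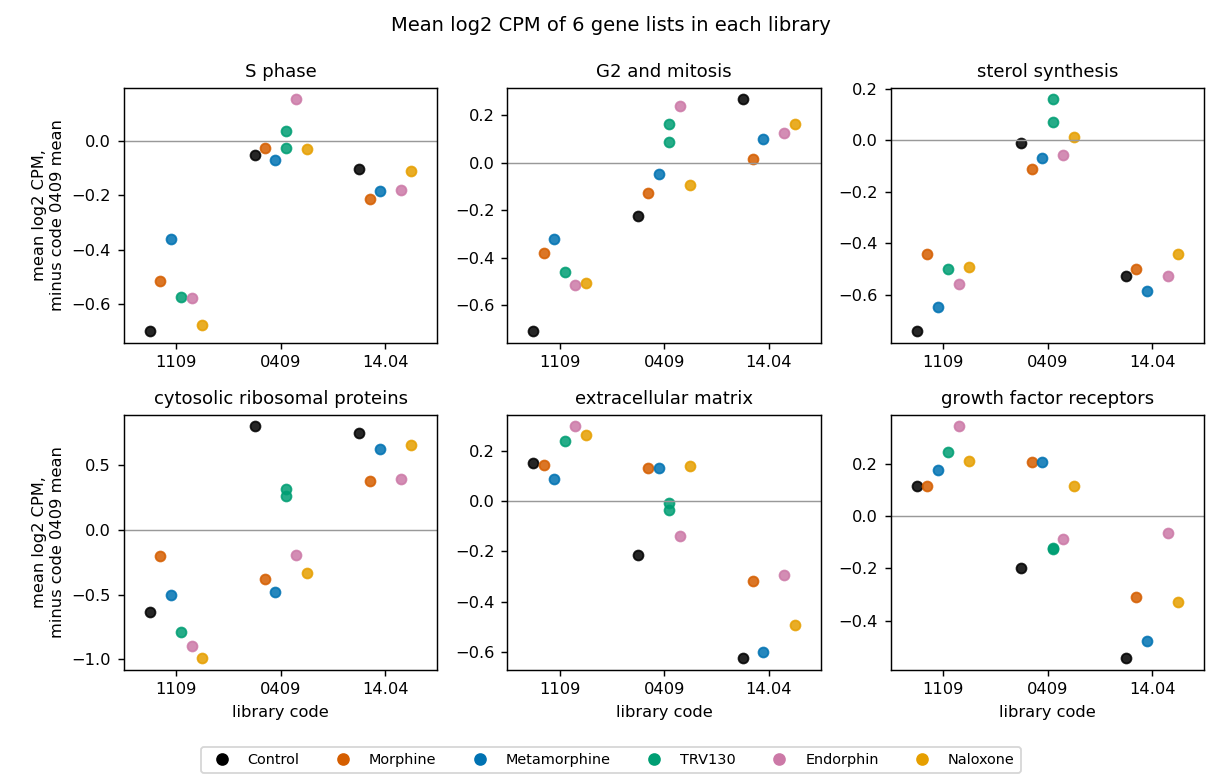
Mean log2 CPM of 6 gene lists in each library, relative to the mean of code-0409 (vertical axes; the line is 0), 1 point per library coloured by treatment. S phase, G2 and mitosis, and sterol synthesis separated code-1109 from code-0409 without overlap, while the ribosomal protein, matrix and receptor lists overlapped.

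Genes of amino acid supply were lower as well. In the list driven by ATF4, the transcription factor of amino acid shortage, 16 of 29 genes fell and 0 rose, with a median of -0.36. MTHFD2, a mitochondrial folate enzyme, had 30.7, 35.8 and 44.2 CPM in code-1109 and 57.2, 64.1 and 76.1 CPM in code-0409, with no overlap (log2 fold change -0.81 ± 0.09, edgeR adjusted p = 0.00293). SLC7A5, a transporter of large neutral amino acids, had 50.3, 61.5 and 67.5 CPM in code-1109 and 72.1, 87.3 and 97.6 CPM in code-0409 (-0.47 ± 0.07). ATF4 itself fell by 0.57, the serine synthesis enzymes PHGDH and PSAT1 by 0.51 and 0.47, and asparagine synthetase ASNS by 0.36. The list had 11 calls without the code-0409 water control and 5 without its β-endorphin library, and the 5 kept with each library left out were GARS1, MTHFD2, PHGDH, SLC7A5 and TRIB3.

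Glycolysis and hypoxia genes fell more often than they rose. Of 36 tested genes, 17 fell (47.2%) and 2 rose (5.56%), against 11.6% and 9.03% of all tested genes. The list's median was -0.20. Most that fell were glycolytic enzymes. LDHA, which turns pyruvate into lactate, had 59.3, 71.8 and 88.9 CPM in code-1109 and 124, 149 and 155 CPM in code-0409, with no overlap (log2 fold change -0.93 ± 0.10, edgeR adjusted p = 0.00257). ENO1 (-0.63), PKM (-0.54), ALDOC (-0.68) and GAPDH (-0.70) also fell. DDIT4, an inhibitor of mTORC1 induced by hypoxia and stress, fell by 0.78. TXNIP, a sensor that holds back glucose uptake, rose, with 103, 116 and 125 CPM in code-1109 and 64.9, 72.5 and 86.2 CPM in code-0409 (0.63 ± 0.08, edgeR adjusted p = 0.00339), and NDRG1 rose by 0.60. There were 13 falls and 2 rises without the code-0409 water control and 5 falls without the β-endorphin library of code-1109, and ALDOC, DDIT4, ENO1, LDHA, PKM, TXNIP and NDRG1 were kept with each library left out.

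The hypoxia element letters ACGTG, on either strand, stood in 15 of the 32 windows found for the glycolysis and hypoxia list (46.9%), against 21.6% of all promoters, and in 9 of the 15 windows of members that fell. These too are matches of letters and not measured binding sites. The list was made of known glycolysis and hypoxia genes, so an excess was likely beforehand. LDHA is shown as the member with the smallest p that held the letters. Its 250 bases before the start (chr11:18394313-18394562, plus strand) carried 5 overlapping or separate matches, in capitals below.
LDHA: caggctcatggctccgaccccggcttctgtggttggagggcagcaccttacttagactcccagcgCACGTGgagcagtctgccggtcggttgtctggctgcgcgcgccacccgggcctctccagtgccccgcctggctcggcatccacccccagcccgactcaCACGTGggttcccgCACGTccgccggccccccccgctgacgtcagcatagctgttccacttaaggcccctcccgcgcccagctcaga
The match nearest to the start begins 73 bases before it, and the longer capital runs read the same on both strands.

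Ribosomal proteins, respiratory chain subunits and proteasome subunits were lower on average, but by an amount that depended on few libraries. Of the 79 cytosolic ribosomal protein genes, 45 fell and 0 rose, with a median of -0.62. Their median difference was -1.44 in water, -1.11 with TRV130, -0.71 with β-endorphin, -0.64 with naloxone, -0.03 with metamorphine and 0.17 with morphine. The morphine and metamorphine differences thus lay near or above 0, unlike the other 4. Without the code-0409 water control 3 of the 79 were called (median -0.46), without the TRV130 library of code-1109 0 were called, with 0 kept under every omission. RPS26 (-0.69 ± 0.16, edgeR adjusted p = 0.0198) had the smallest p of the list. Many of these genes have near-identical pseudogene copies, between which reads may have been split. Of 51 nuclear-encoded respiratory chain genes 33 fell (median -0.58; 7 without the code-0409 water control), and of 31 proteasome genes 22 fell (median -0.45; 12 without it), and 0 of either list were kept with each library left out. Of the 13 mRNAs encoded in mitochondrial DNA, edgeR called 0, with a median of -0.11 and edgeR adjusted p-values from 0.383 upward.

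Gene length moved with the code. Over 11981 protein-coding genes with at least 5 CPM, Spearman's rho between the log2 fold change and annotated exon length was 0.52, as a description across genes that share the same 13 libraries, and 0.14 after an offset per library smoothed on length and GC content. The median log2 fold change was -0.31 in the shortest of 5 equal bins of genes (105 to 2955 bases) and 0.21 in the longest (8382 bases and over). For each library, log2 CPM was also taken relative to each gene's mean over the 18 libraries. On that scale the median of the longest bin was compared with that of the shortest. The difference was 0.20, 0.43 and 0.61 at its lowest, median and highest in code-1109, and -0.88, 0.12 and 0.28 in code-0409. Within code-0409 the water control stood lowest, followed by the TRV130 libraries at -0.41 and -0.39. Code-14.04 lay between -0.57 and -0.12. Ribosomal protein genes had a median exon length of 3002 bases and extracellular matrix genes 6905 bases. With the offset, 29 of the 79 ribosomal protein genes were still called lower (median -0.49). So were 26 of 51 respiratory chain genes (median -0.42) and 20 of 31 proteasome genes (median -0.30). With the offset, the codes differed in 4347 genes, of which 2164 were higher and 2183 lower in code-1109, and 5 of the 4485 genes changed sign. What set the length gradient was not tested, and RNA integrity values are not among the sources used here.

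**Figure D4:**
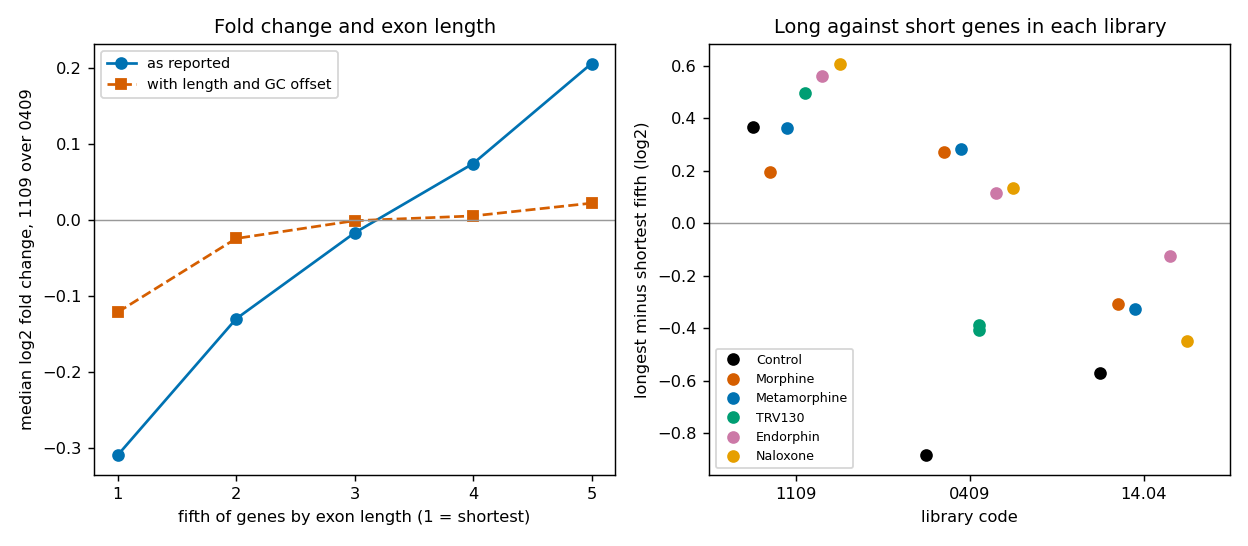
Left, median log2 fold change of code-1109 over code-0409 in 5 equal bins of protein-coding genes ordered by exon length, as reported and with the length and GC offset. Right, the median of the longest bin minus that of the shortest in each library, in log2 CPM relative to each gene's mean over the 18 libraries. It ran from 0.20 to 0.61 in code-1109 and from -0.88 to 0.28 in code-0409.

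Markers of sympathoadrenal and neuronal identity did not move as a block. Of 30 adrenergic identity genes, 7 fell and 4 rose (median -0.10), or 6 and 3 without the code-0409 water control. DDC, which makes dopamine, had 82.4, 103 and 108 CPM in code-1109 and 160, 172 and 201 CPM in code-0409, with no overlap and with the code-1109 water control apart as the lowest (log2 fold change -0.78 ± 0.08, edgeR adjusted p = 0.00239). The transcription factors ISL1 (-0.54), LMO1 (-0.95) and HAND2 (-0.34) fell. INSM1, a zinc finger factor of neuroendocrine progenitors, had 0.0427, 0.172 and 0.200 CPM in code-1109 and 0.517, 0.893 and 1.18 CPM in code-0409. That is the deepest fall named here, at a very low level (-2.35 ± 0.29, edgeR adjusted p = 0.00341). GATA2 (0.52) and the noradrenaline transporter SLC6A2 (0.47) rose. PHOX2A (0.03) and DBH (-0.02) did not pass. The code-0409 water control had the lowest list mean of its set.

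Among 32 neuronal cytoskeleton genes 12 fell and 4 rose (median -0.16). GAP43, a growth cone protein, had 17.2, 19.7 and 24.6 CPM in code-1109 and 35.4, 39.6 and 46.9 CPM in code-0409, with no overlap (log2 fold change -1.001 ± 0.11, edgeR adjusted p = 0.00239). TUBB3, the neuronal β-tubulin, had 445, 475 and 572 CPM in code-1109 and 691, 789 and 985 CPM in code-0409 (-0.66 ± 0.11). TUBB2B (-0.59), TUBA1A (-0.71) and the microtubule regulator STMN1 (-0.70) fell, while the cell adhesion genes NCAM1 (0.34) and L1CAM (0.29), the microtubule protein MAP1A (0.46) and the kinesin KIF5A (0.43) rose. Without the code-0409 water control 11 genes fell and 0 rose, so all 4 rises lost their call, and with the length and GC offset 11 fell and 1 rose. DCX (0.02) and MAP2 (0.20) did not pass. Without the TRV130 library of code-1109 the falls numbered 3, and those 3 (GAP43, TUBB2B and TUBB3) were kept with each library left out. Of 16 granin and neuropeptide genes 5 fell and 4 rose (3 and 4 without the code-0409 water control), with CHGA at -0.72, NPY at -0.79, CHGB at 0.36 and the amidating enzyme PAM at 0.39. In the synaptic vesicle list 3 of 34 rose and 3 fell, 8.82% each, against 9.03% and 11.6% of all tested genes. The list was thus called no more often than genes at large. Its median was 0.14, and -0.004 with the length and GC offset. SV2C (0.75) and RIMS1 (0.68) were among the rises, against CPLX2 (-0.63), RAB3A (-0.53) and SYN1 (-0.35). Without the code-0409 water control 3 rose and 2 fell.

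Retinoic acid targets were higher, although all cells had received the same dose. Of 20 genes, 9 rose and 1 fell (median 0.23). CYP26A1, which degrades retinoic acid and is induced by it, had 282, 385 and 574 CPM in code-1109 and 209, 253 and 326 CPM in code-0409 (log2 fold change 0.66 ± 0.13, edgeR adjusted p = 0.0145), overlapping in part. NTRK2, the BDNF receptor induced by retinoic acid in this line, had 324, 430 and 436 CPM in code-1109 and 157, 290 and 359 CPM in code-0409 (0.64 ± 0.13). CYP26B1 (0.83), RARB (0.41), RET (0.52) and TGM2 (0.51) rose too. CRABP1, which binds retinoic acid in the cytoplasm, fell, with 12.7, 13.9 and 15.9 CPM in code-1109 and 22.4, 26.5 and 55.7 CPM in code-0409 (-1.08 ± 0.15, edgeR adjusted p = 0.00494). The rises numbered 6 without the code-0409 water control and 0 without its β-endorphin library, and CRABP1 was the gene of the list kept with each library left out. Of 12 tested HOX genes, 1 rose, as 1 did without the code-0409 water control: HOXD4 (0.65), which is also on the retinoic acid list. With the length and GC offset the HOX median was 0.21, against 0.02 without it.

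Matrix and receptor genes were higher in code-1109 more often than lower. Among 35 extracellular matrix genes 15 rose and 2 fell (median 0.27, or 0.12 with the length and GC offset, where 10 rose and 2 fell). Without the code-0409 water control 11 rose and 2 fell. LAMB2, a laminin chain, had 98.9, 118 and 132 CPM in code-1109 and 62.0, 76.9 and 89.4 CPM in code-0409, with no overlap (log2 fold change 0.66 ± 0.10, edgeR adjusted p = 0.00636). TIMP3, an inhibitor of matrix proteases, had 93.7, 107 and 132 CPM in code-1109 and 46.6, 69.3 and 81.2 CPM in code-0409 (0.77 ± 0.13). Tenascin R, TNR, rose by 0.91, the basement membrane linker NID1 by 0.82, and the basement membrane chains COL4A1 by 0.55 and LAMC1 by 0.50. Without the TRV130 library of code-1109 the rises numbered 3, and LAMB2, TIMP3 and TNR were kept with each library left out.

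Of 24 growth factor receptor genes 10 rose and 2 fell (median 0.29). PDGFRA, the α receptor of platelet-derived growth factor, had 165, 205 and 217 CPM in code-1109 and 65.9, 113 and 157 CPM in code-0409, with no overlap (log2 fold change 0.84 ± 0.13, edgeR adjusted p = 0.00601). IGF1R had 273, 294 and 315 CPM in code-1109 and 93.0, 195 and 229 CPM in code-0409 (0.81 ± 0.15). FGFR3 rose by 1.03 and EGFR by 0.51, while ERBB2 fell by 0.35 and the GDNF-family coreceptor GFRA2 by 0.96. There were 7 rises and 1 fall without the code-0409 water control and 3 rises without the TRV130 library of code-1109, and PDGFRA and FGFR3 were kept with each library left out. Of the 9 tested markers of fibroblasts and muscle, 4 rose (PDGFRA, PDGFRB, DCN and TAGLN; 4 without the code-0409 water control), with a summed level over all 15 listed markers of 472 to 549 CPM in code-1109 and 277 to 435 CPM in code-0409. The muscle genes ACTA2 and MYH11 had 3920 and 1550 reads in all over the 13 libraries. TNNT2, DES, MYL9 and MYOD1 had 138, 36, 23 and 7, and POSTN had 0. COL1A1 did not pass (0.07). The part of such cells in the matrix result was not tested.

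Genes switched on by FOXO factors, which act when insulin and growth factor signalling is low, some of them also on the lists above, rose in 7 of 17 cases and fell in 0 (median 0.38, and 0.22 without the water control and both TRV130 libraries of code-0409). PIK3IP1, an inhibitor of PI3-kinase, rose by 0.47, the mTORC2 subunit RICTOR by 0.51, the insulin receptor INSR by 0.40, FOXO1 by 0.73 and the pyruvate dehydrogenase kinase PDK4 by 0.69. There were 7 rises without the code-0409 water control and 3 without its β-endorphin library, and TXNIP, RICTOR and PIK3IP1 were kept with each library left out. SPRY4, a feedback inhibitor of receptor tyrosine kinase signalling, had 103, 118 and 127 CPM in code-1109 and 47.2, 70.9 and 76.8 CPM in code-0409, its water control standing apart as the lowest (log2 fold change 0.83 ± 0.08, edgeR adjusted p = 0.00239). In the early response list 5 of 26 rose and 5 fell (5 and 4 without the code-0409 water control): BTG2 (0.76), an antiproliferative gene, KLF10 (0.46), ZFP36 (0.63), EGR3 (1.21) and FOSB (1.19) against MYC, GADD45G (-1.60), JUND (-0.53), JUN (-0.48) and DUSP2 (-0.88).

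**Figure D5:**
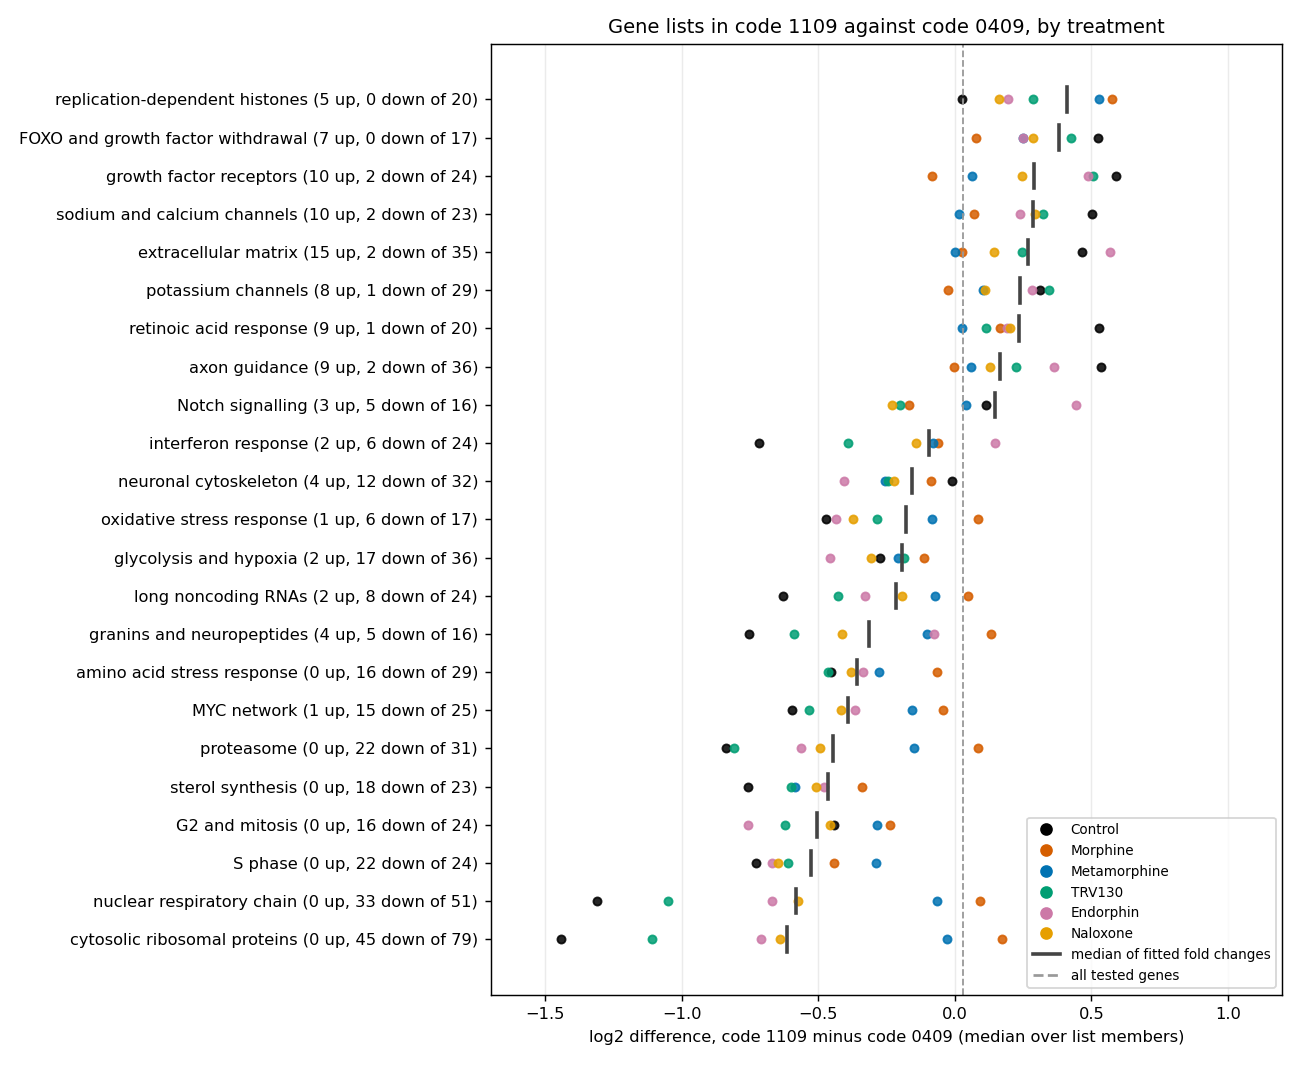
Median log2 difference of code-1109 minus code-0409 over the members of each list in each treatment (points), for lists with at least 10 tested members and at least 25% of them called in 1 direction; the bar is the median of fitted log2 fold changes and the dashed line that of all tested genes, 0.03. The S phase and sterol lists were negative in all 6 treatments, from -0.73 to -0.29 and from -0.76 to -0.34, while ribosomal protein genes ran from -1.44 to 0.17.

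Ion channel genes rose more often than they fell. Of 29 potassium channel genes 8 rose and 1 fell (median 0.24), or 5 and 1 without the code-0409 water control. KCNC4, a fast delayed rectifier, had 6.25, 9.88 and 11.8 CPM in code-1109 and 2.75, 4.91 and 5.96 CPM in code-0409, with no overlap (log2 fold change 1.07 ± 0.18, edgeR adjusted p = 0.00932). Of 23 sodium and calcium channel genes 10 rose and 2 fell (median 0.29). The counts were 7 and 2 without the code-0409 water control, and with the length and GC offset 6 rose and 3 fell (median 0.08). The sodium channels SCN3A (0.61), SCN9A (0.60), SCN8A (0.62) and SCN2A (0.41) rose, while the R-type calcium channel CACNA1E (-1.35) and the auxiliary subunit CACNA2D3 (-0.95) fell. These are long genes, and the rises of the potassium and the sodium and calcium lists shrank to 2 and 1 without the TRV130 library of code-1109 and the β-endorphin library of code-0409. Of 36 axon guidance genes 9 rose and 2 fell, led by the secreted SEMA3C (0.66 ± 0.08) and the netrin receptors UNC5C (0.59) and UNC5B (0.83), against the netrin receptor DCC (-1.06). There were 6 rises and 1 fall of that list without the code-0409 water control, and 2 rises without the TRV130 library of code-1109. The list had a median exon length of 9542 bases and a median log2 fold change of 0.16. With the offset that was 0.08, with 8 rises and 3 falls. Among all genes of the longest bin 22.7% were called higher and 3.59% lower, against 25% and 5.56% of this list.

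Of the 4 opioid receptor genes tested, 2 were called higher in code-1109, and 1 of these, OPRD1, was kept with each library left out. OPRD1, the δ opioid receptor (chr1:28812142-28871267 in GRCh38), had 92.6, 128 and 179 CPM in code-1109 and 61.3, 69.1 and 85.2 CPM in code-0409. All code-1109 libraries were above all code-0409 libraries, with a log2 fold change of 0.89 ± 0.14 (edgeR adjusted p = 0.00764), and 0.79 without the code-0409 water control. OPRM1, the µ opioid receptor (chr6:154010496-154246867), had 13.8, 17.1 and 20.5 CPM in code-1109 and 5.52, 10.6 and 15.2 CPM in code-0409. It was higher in code-1109 in 5 of 6 treatments, the ranges overlapped, and the log2 fold change was 0.74 ± 0.19 (edgeR adjusted p = 0.0285) and 0.57 without the code-0409 water control (edgeR adjusted p = 0.0413). Its call was lost without any 1 of the TRV130, β-endorphin or naloxone libraries of either code. The nociceptin receptor OPRL1 (0.30, edgeR adjusted p = 0.0534) and the zeta receptor OGFR (-0.13) did not pass, and OPRK1, with 0 to 7 reads per library, was below the filter. The code-14.04 medians were 56.6 CPM for OPRD1 and 6.07 CPM for OPRM1. Of the 4 genes that the series' title names, 0 passed the filter. CACNA1F had 119 reads in the code-0409 water control and 0 to 5 in each of the other 12 libraries, and RASAL1 and TRIM56 were likewise highest there, with 55 and 103 reads, while GARIN4 reached 25 reads in the code-1109 water control.

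By size, the largest rise among protein-coding genes past the threshold, with no overlap and a mean of at least 10 CPM in the higher set, was that of ANGPTL4, a secreted inhibitor of lipoprotein lipase (chr19:8363289-8374373). It had 8.87, 9.96 and 13.5 CPM in code-1109 and 1.85, 3.09 and 4.22 CPM in code-0409 (log2 fold change 1.78 ± 0.18, edgeR adjusted p = 0.00239), and it overlaps RAB11B-AS1 on the opposite strand. HDAC9, a class IIa histone deacetylase, had 52.99, 73.6 and 81.5 CPM in code-1109 and 13.5, 31.3 and 43.1 CPM in code-0409 (1.39 ± 0.19). The complement component C7 had 469, 572 and 631 CPM in code-1109 and 222, 246 and 336 CPM in code-0409 (1.09 ± 0.11). LRP4, a receptor of the neuromuscular junction, rose by 1.15 and the inositol trisphosphate receptor ITPR1 by 1.09. The other 10 were BLK, SLC34A3, SSPOP, SLC23A3, CPED1, RNF224, PPP1R3B, ARHGAP20, SLC13A4 and PPFIBP1, with log2 fold changes from 1.07 to 1.49. For RNF224 the morphine library of code-1109 stood apart below the rest of its set.

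The largest fall by that rule was CXCR4, the receptor of the chemokine CXCL12 (chr2:136114349-136118165). It had 5.25, 5.60 and 6.80 CPM in code-1109 and 11.8, 15.6 and 25.5 CPM in code-0409, the TRV130 libraries being the highest of code-0409 and the morphine library the highest of code-1109 (log2 fold change -1.44 ± 0.16, edgeR adjusted p = 0.00239). FABP5, a fatty acid carrier that can deliver retinoic acid, had 5.92, 7.03 and 9.99 CPM in code-1109 and 12.3, 16.4 and 32.1 CPM in code-0409 (-1.22 ± 0.21). TMSB10, which binds actin monomers, had 157, 198 and 249 CPM in code-1109 and 291, 365 and 860 CPM in code-0409 (-1.07 ± 0.21). NME1, a nucleoside diphosphate kinase, fell by 1.12 and shares exon sequence with the readthrough gene NME1-NME2, so its count may have been split. The remaining falls by size were FJX1, RPL22L1, TRABD2A, MRPL23, ACAT2, CRABP1, TMSB15A, DBI, CDKN2A, FAM162A and GAP43, from -1.28 to -1.001. TRABD2A shares exon sequence with TMSB10 on the opposite strand, and TMSB10 held 94.6% of the reads counted for the pair. Their falls therefore cannot be told apart in counts without strand. The genes of smallest p also included the rises of SH3TC1 (0.80), VASN (1.01), which binds TGF-β, and the Wnt antagonist DKK2 (0.83), and the fall of the cold-inducible RNA-binding protein RBM3 (-0.76 ± 0.08, edgeR adjusted p = 0.00239). The counts carry no strand, and FOXM1, HMGCS1, MTHFD2, DDC, SLC7A5, GARS1, DDIT4, TUBB2B, OPRD1, OPRM1, LRP4, ITPR1, FABP5 and CRABP1 also share exon sequence with an annotated gene on the opposite strand.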

How the data were processed

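RNA sequencing read counts per gene, deposited by the authors as 1 table of 18 columns, were used as they stand. Cells were lysed in TRIzol, RNA was treated with DNase I, and unstranded libraries were read as pairs on an Illumina NovaSeq, per the labels' protocols. The submitters' processing notes name HISAT2, featureCounts, FastQC, DESeq2 and the GRCh38 build, with versions not given in the sources used here. All gene identifiers matched GENCODE release 29. The library code was read from the column names. Genes were filtered with filterByExpr (minimum count 10) and tested with edgeR 4.0.16 in R 4.3.3: TMM scaling, a robust quasi-likelihood fit, treatment and code as terms, and Benjamini-Hochberg adjustment with a threshold of 0.05. CPM were taken from TMM-scaled library totals. The median 95% interval of a log2 fold change was ± 0.22 over 11910 genes of 10 CPM or more. DESeq2 1.42.0, limma-voom 3.58.1 with quality weights, other scalings, filters, library subsets and a lowess offset (span 0.3) on exon length and GC were tried. The script was tested on simulated data. Named genes were the 15 largest rises and falls among protein-coding genes past the threshold without overlap and with a mean of 10 CPM or more in the higher set, the 5 smallest p in each direction, the 4 smallest p of each of 49 lists, and the opioid receptors and title genes. Values of some genes are not reported here. Other list members named as examples were chosen after their values were seen. The members and lists were chosen with earlier results of these data known. No pair of libraries agreed within sampling noise (lowest chi-square per degree of freedom within a code 2.89), so none was taken as a duplicate.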

Additional observations from a re-analysis of the deposited data

Results flagged for a closer look

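In each set of 6 or 7 libraries, the highest or lowest library was taken to stand apart where its gap to the nearest other library was a large share of the whole range (Dixon's critical value). This held in 20 of 196 groups of values looked at, and chance gives about 1 in 20. The water control of code-1109 stood apart in 6 of them, and the water control of code-0409 in 6.

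Among genes, ACAT2 reached 60.0 CPM and CXCR4 6.80 CPM in the code-1109 morphine library, against 47.6 and 5.69 CPM in the next library of code-1109. RNF224 was at 6.32 CPM in that morphine library, against 10.3 CPM in the next. MYC was at 5.36 CPM in the code-1109 metamorphine library, against 3.64 CPM in the next. DDC was at 82.4 CPM in the code-1109 water control, against 99.3 CPM in the next, and SPRY4 at 47.2 CPM in the code-0409 water control, against 67.8 CPM in the next.

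Among library measures, the code-1109 water control had 15.7% of counts in mitochondrial genes, against 10.8% in the next library, and 88.8% in protein-coding genes, against 90.6%. The code-0409 water control had 820 CPM in otherwise silent protein-coding genes, against 105 in the next.

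Among list means in log2 CPM, the code-1109 water control was lowest for MAP kinase feedback (5.64), cAMP and protein kinase A (5.17) and synaptic vesicle release (5.05). The code-0409 water control was lowest for adrenergic identity (5.81) and the retinoic acid response (6.55), and highest for Schwann and glial markers (1.56) and endothelial markers (2.68). The first TRV130 library of code-0409 was highest for Wnt targets (3.52) and the early response (4.32), and its β-endorphin library lowest for lysosome genes (5.81) and the unfolded protein response (6.11).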

How the results depend on the processing

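The 4485 calls (1965 higher, 2520 lower in code-1109) became 2571 (1192 and 1379) without the code-0409 water control, 152 (68 and 84) without that library and both naloxone libraries, and 1992 (1015 and 977) without it and both TRV130 libraries of code-0409, a choice made after seeing the data. DESeq2 called 6291 genes (2993 higher, 3298 lower) and limma-voom 6953 (3289 higher, 3664 lower), and glmTreat against 1.5-fold called 0 (0 higher, 0 lower; 968 at an unadjusted p below 0.05). With the length and GC offset the split was 2164 higher and 2183 lower. Leaving out each library in turn gave 574 to 6806 calls, 231 to 3228 higher and 343 to 3578 lower, the lowest without the code-1109 β-endorphin library. For a treatment with 1 library in that code, such a fit lost the whole treatment from the comparison. Why treatments differed in this was not tested. The 12-library count of 2571 became 5031 with limma-voom and 4679 with no filter on low counts. No gene called with 13 libraries had the opposite sign, except 5 under the offset, in fits that reuse most or all of these libraries. Of 215 named genes 181 were called, and 93 of these with each library left out. Without the code-0409 water control and its TRV130 libraries, the list medians became -0.34 for fatty acid synthesis, 0.22 for FOXO targets and 0.38 for Schwann and glial markers; the last was 0.40 without the water control and both naloxone libraries and 0.015 to 0.36 with each library left out. The offset moved the medians of sodium and calcium channels to 0.085, HOX genes to 0.21 and apoptosis regulators to 0.050. The difference in total counts lay between -4531300 and -2680000 with each library left out. Without the morphine library of code-0409 or of code-1109 the exact test's p fell below 0.05. That p was not adjusted over the library measures, and these fits allow fewer arrangements. The labels give no replicate numbers that pair libraries across the codes. Treatment, which does pair them, was a term of the model, and without it 5222 genes were called. Changes under about 0.22 on the log2 scale lay within the typical interval at this depth.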

Other observations

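Other gene groups held called genes too. Of 24 interferon response genes 6 fell in code-1109, among them the membrane proteins IFITM1 (-1.38) and BST2 (-0.83), and 2 rose, STAT2 (0.45) and IRF1 (0.59), with 4 falls and 2 rises without the code-0409 water control and 0 kept with each library left out. In the Notch list 3 of 16 rose, including the receptors NOTCH2 (1.11) and NOTCH3 (0.58) and the target HEY1 (0.43), and 5 fell, including HES6 (-0.56) and the ligands DLK1 (-0.73) and DLL3 (-0.68), with 2 rises and 4 falls without that library. The 23 mesenchymal state genes did not move as a group: 3 rose and 4 fell, 13.04% and 17.4% against 9.03% and 11.6% of all genes, with a median of -0.01, and 1 rose and 2 fell without that library. Vimentin VIM (-0.51), tenascin C TNC (-0.93) and RUNX1 (-1.36) were among the falls. Of 35 lysosomal genes 7 rose and 0 fell (3 and 0 without it), led by the peptidase TPP1 (0.58), and 6 of 32 cAMP genes rose (3 without it), including the phosphodiesterases PDE3A (0.64) and PDE7B (0.66), while the kinase subunit PRKACA fell (-0.30). Of 14 BMP and TGF-β targets 2 rose and 2 fell (median 0.19; 2 and 1 without that water control). ID1 (-0.58) and ID2 (-0.64) fell, while SKIL rose and was kept with each library left out. Of 26 apoptosis regulators 5 fell (19.2%) and 1 rose (3.85%), with a median of -0.08 (4 and 1 without that water control). The rise was that of the caspase-8 inhibitor CFLAR (0.78).

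Of 24 long noncoding RNAs 8 fell (3 without the code-0409 water control), most of them snoRNA host genes, including SNHG5 (-0.85) and SNHG16 (-0.47), and the nuclear RNAs NEAT1 (0.71) and KCNQ1OT1 (0.69) rose. Families picked after the values were seen included 78 mitochondrial ribosomal protein genes, of which 51 fell and 0 rose (median -0.46), and 13 LSM genes of RNA processing, of which 7 fell (median -0.65). With the length and GC offset 31 and 7 fell, with medians of -0.30 and -0.44. Without the code-0409 water control the medians were -0.38 and -0.51. The mitochondrial ribosomal genes had a median exon length of 2539 bases, and 37.9% of all genes in the shortest bin were called lower. All 15 tested α-protocadherins rose (median 0.30), but these genes share their last exons, so their counts are not separate measurements. Of 15 β-protocadherins 10 rose (median 0.39), and of 22 γ-protocadherins edgeR called 0 (median 0.14). Replication-dependent histone genes, whose mRNAs mostly lack poly(A) tails, rose in 5 of 20 cases and fell in 0 (median 0.41; 6 of 19 rose without that water control), the opposite direction to the S phase list, with 0 kept with each library left out. The signal recognition particle RNAs RN7SL1 and RN7SL2 had fitted log2 fold changes of 1.14 and 1.10 that did not pass (edgeR adjusted p = 0.143 for RN7SL1), and the code-1109 water control held their highest levels, 190 and 321 CPM.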
